A study of Mus musculus with 6 samples.

Results

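The osteogenic and chondrogenic fate genes described here are 10 genes: the transcription factors Runx1, Runx2, Sp7 and Sox9, the mineralization enzymes Alpl and Enpp1, the Gla proteins Mgp and Bglap, and the matrix genes Ibsp and Acan. Members were found by their symbol among the 16894 genes listed for fibroadipogenic progenitors (FAPs), mesenchymal cells of the interstitial space of skeletal muscle. Of the 10, 8 were listed and 7 were expressed highly enough to be tested among 14776 genes. Ibsp, which encodes bone sialoprotein, and Acan, which encodes the cartilage proteoglycan aggrecan, were not among the listed genes and were not analyzed here.

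Bulk RNA-seq of mouse primary FAPs compared 3 control (non-senescent) with 3 etoposide-induced senescent cultures. All cultures came from C57BL/6 mice, male and female, aged 3 to 6 months. Cells were magnetically sorted from hindlimb muscle as negative for CD45, CD31 and α7 integrin and positive for SCA-1, and grown with 20% fetal bovine serum and 10 ng/mL bFGF at 3% oxygen. Senescent FAPs had received 20 μM of etoposide, which breaks DNA through topoisomerase, for 48 h and then 5 days in normal medium, whereas for control FAPs the sources give no etoposide. The sources do not say whether controls received vehicle, whether animals were pooled, or whether replicates came from separate animals, so p-values measure only the spread between these samples. Cells were in growth medium, and no bone or cartilage differentiation medium is described for them.

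In the skeleton, RUNX2 with its partner CBFβ starts the osteoblast program, SP7 acts downstream of it, and SOX9 directs mesenchymal cells to cartilage. Mineral formation depends on the balance of phosphate and pyrophosphate. The enzyme ENPP1 makes pyrophosphate, and tissue-nonspecific alkaline phosphatase, the product of Alpl, breaks it down. Matrix Gla protein, the product of Mgp, restrains calcification. FAPs are known as a source of ectopic bone and cartilage in injured muscle, which is why the level of these genes in FAPs is of interest.

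Among the 7 tested members, Mgp rose in senescent FAPs and the transcription factors Runx1, Runx2 and Sp7 fell (adjusted p under 0.05, limma). Sox9, Alpl and Enpp1 did not pass this test. Bglap, at the floor of detection in control FAPs, lay below the expression filter and was not tested with the other genes. For comparison, 21.8% of all genes tested rose and 24.3% fell, so changes were common across the transcriptome, and 1 of 7 members higher and 3 of 7 lower are to be read against those shares. With a log2 fold change of more than 1 in size and p below 0.01 before adjustment, a stricter rule, Mgp was the 1 member higher, against 6.93% of all genes tested, and Sp7 the 1 member lower, against 3.90%. The median log2 fold change of the 7 members was -0.61, beside -0.03 for all genes tested.

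**Figure D1:**
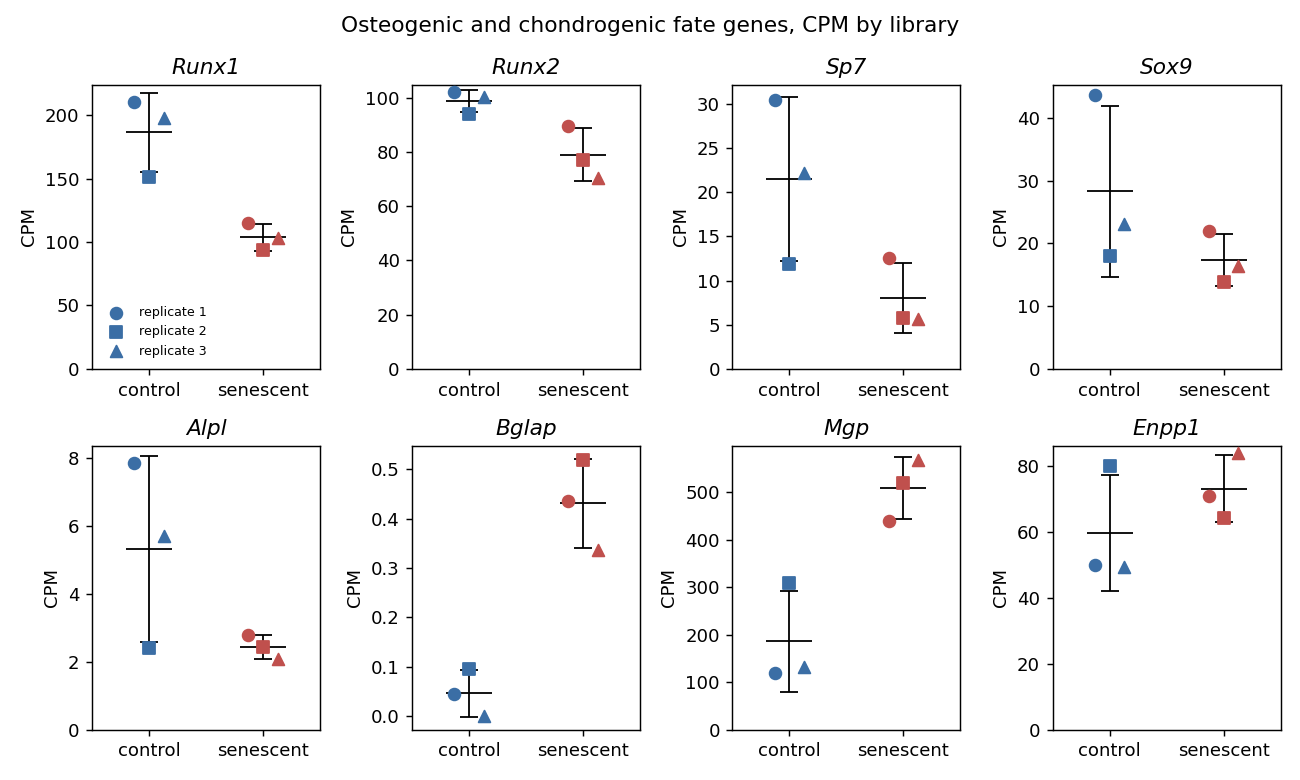
Deposited CPM (reads relative to the scaled library size, linear axis from 0) of the 8 listed members in 3 control (blue) and 3 senescent (red) libraries; marker shape gives the replicate number, and the long horizontal line with capped bars gives mean ± SD (n = 3). Runx1, Runx2, Bglap and Mgp do not overlap between groups, as is true of 57.4% of all genes tested. Control replicate 2, the square, is the control library nearest the senescent mean in all 8 panels, against 38.5% of all genes tested.

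The libraries held 41412179 to 59912520 reads on genes, and 1 read was worth 0.0167 to 0.0225 CPM. All 10 FAP markers examined were listed, including Pdgfra and Ly6a, with a summed level of 2649 to 2946 CPM in control and 3650 to 4011 CPM in senescent libraries, and 6 of the 10 passed the test as higher. Summed markers of other cell types were far lower, but single markers overlapped in level with FAP markers. The tenocyte marker Fmod averaged 133 CPM in control libraries, above the FAP markers Dcn (62.3 CPM) and Cd34 (22.5 CPM). In senescent libraries Fmod averaged 114 CPM, above Cd34 (70.1 CPM) but below Dcn (197 CPM). The FAP markers with the highest control means were Pdgfrb (1010 CPM) and Gsn (821 CPM). The sums for leukocyte, myogenic, mural and glial markers were higher in every senescent than in every control library. In control and senescent libraries respectively, 5 of 7 leukocyte markers were listed and summed to 9.24 to 12.3 and 21.2 to 25.99 CPM, with Ptprc not listed. For 3 of 7 myogenic markers the sums were 14.3 to 19.3 and 23.7 to 30.5 CPM, with Pax7 and Myod1 not listed. For 5 of 5 mural markers they were 36.7 to 60.8 and 82.6 to 97.7 CPM, for 5 of 5 tenocyte markers 102 to 232 and 82.4 to 176 CPM, for 4 of 5 glial markers 3.77 to 8.10 and 10.1 to 11.9 CPM with Sox10 not listed, and for 3 of 5 endothelial markers 4.24 to 5.95 and 3.91 to 4.94 CPM. The part of these other cells in the results for the members was not tested. In bulk RNA, fewer cells that express a gene and less of its RNA per cell cannot be told apart.

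The RUNX genes come first. Runx1 (chromosome 16, 92601466 to 92826149, minus strand, GENCODE M21 annotation of GRCm38) is best known for blood formation and is also expressed in mesenchymal and cartilage precursors. Runx2 (chromosome 17, 44495987 to 44814797, minus strand) is the defining osteoblast factor. Their proteins recognize the same letters, TGTGGT, or ACCACA on the other strand. These letters were searched on both strands in RefSeq promoter windows of 300 bases (250 before and 50 after the start site, GRCm38.p6), which the table held for 7 of the 10 members, as 9 windows. They occurred in 4 of the 9, against 16.8% of all 32851 windows. The windows of Runx1 and Runx2 are shown because these genes were called, and because the upstream of the 2 Runx1 windows and the Runx2 window share a 22-base stretch with a doubled match. Matches are in capitals, and both windows lie on the minus strand (chr16:92826025-92826324 and chr17:44814578-44814877).
Runx1 upstream window: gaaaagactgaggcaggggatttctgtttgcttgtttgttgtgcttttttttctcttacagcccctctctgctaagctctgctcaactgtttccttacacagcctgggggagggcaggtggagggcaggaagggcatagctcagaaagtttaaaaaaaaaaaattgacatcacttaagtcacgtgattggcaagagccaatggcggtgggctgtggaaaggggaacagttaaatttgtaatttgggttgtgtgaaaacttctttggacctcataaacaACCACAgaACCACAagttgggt
Runx2 window: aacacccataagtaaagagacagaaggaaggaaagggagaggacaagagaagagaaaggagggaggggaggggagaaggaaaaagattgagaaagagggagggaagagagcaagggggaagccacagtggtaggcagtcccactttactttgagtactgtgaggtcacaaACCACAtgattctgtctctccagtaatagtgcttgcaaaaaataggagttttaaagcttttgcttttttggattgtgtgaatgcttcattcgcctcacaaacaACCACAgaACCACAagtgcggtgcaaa
Stretch shared by both: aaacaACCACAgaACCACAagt
The stretch starts 24 bases into the transcribed side in Runx1 and 19 bases in Runx2, and these were the 2 windows in the table that held it. At least 2 matches were present in 1.81% of all windows, whereas the Runx1 window held 2 and the Runx2 window 3. A match is a description of the letters and not evidence of binding.

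Values per library are given here and below in the order of replicates 1, 2 and 3. Runx1 was expressed at 210, 151 and 198 CPM in control FAPs and at 115, 93.7 and 103 CPM in senescent FAPs. Every senescent library lay below every control library, and control replicate 2 was the lowest of the controls. The mean fell from 186 ± 31.3 to 104 ± 10.6 CPM (SD, n = 3 each), a log2 fold change of -0.83 (95% interval -1.15 to -0.52, SE 0.14, limma adjusted p = 0.00251). Runx1 passed the test under all 19 alternative settings, with log2 fold changes of -0.997 to -0.62.

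Runx2 was expressed at 102, 94.0 and 100 CPM in control FAPs and at 89.7, 76.9 and 70.4 CPM in senescent FAPs. The groups did not overlap, although senescent replicate 1 came close to control replicate 2. The fall was the smallest of the called members, from 98.8 ± 4.23 to 79.0 ± 9.82 CPM (SD, n = 3 each, log2 fold change -0.33, 95% interval -0.56 to -0.10, SE 0.10, limma adjusted p = 0.0293). Runx2 was lower in the senescent library of 3 of 3 same-numbered pairs, with log2 differences of -0.18, -0.29 and -0.51. This call was lost in 7 of 19 alternatives (adjusted p over all of them 0.00093 to 0.356), among them division by library totals alone (-0.11, adjusted p = 0.356), a scaling that moved the median of all genes up by 0.20. Relative to that median, the change in Runx2 was -0.29 with the deposited scaling and -0.28 with library totals.

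An antisense gene, Runx2os1, shares 519 exonic bases with Runx2, 5.87% of the exonic length of Runx2. It was listed at 1.63, 1.29 and 1.27 CPM in control and 0.894, 0.636 and 0.675 CPM in senescent libraries, far below Runx2 itself. Whether counting used strand is not given in the sources used here, so reads of the shared bases cannot be assigned to either gene. For Runx1 the overlap with the antisense gene Gm26626 was 106 bases.

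The ratio of the RUNX genes within a library does not depend on scaling between libraries. The log2 ratio of Runx2 to Runx1 was -1.04, -0.68 and -0.98 in control FAPs and -0.35, -0.28 and -0.55 in senescent FAPs. The ratio was higher in every senescent than in every control library. The difference was 0.51 (control mean -0.90 ± 0.19 and senescent mean -0.39 ± 0.14, SD, n = 3 each, two-sided exact permutation p = 0.1, the smallest that 3 against 3 allows, 0.3 after Benjamini-Hochberg adjustment over 3 ratios). The other RUNX family member, Runx3, was not listed. Cbfb, which encodes the shared partner of RUNX proteins, fell from 85.2 ± 7.24 to 63.3 ± 5.84 CPM (SD, n = 3 each, log2 fold change -0.43, SE 0.10, limma adjusted p = 0.00923) with no overlap between groups.

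Sp7 (chromosome 15, 102356606 to 102367182, minus strand), which encodes osterix, the osteoblast factor downstream of RUNX2, had the largest fall of the tested members. Its level was 30.5, 11.9 and 22.2 CPM in control FAPs and 12.6, 5.72 and 5.69 CPM in senescent FAPs. The groups overlapped, since senescent replicate 1 was slightly above control replicate 2, but within each replicate number the senescent library was the lower. The mean fell from 21.5 ± 9.31 to 8.001 ± 3.97 CPM (SD, n = 3 each, log2 fold change -1.37, 95% interval -2.28 to -0.45, SE 0.39, limma adjusted p = 0.0245). The within-pair log2 differences were -1.24, -0.99 and -1.87. With the replicate number as a block, the adjusted p was 0.00109, and over all 19 alternatives it was 2.08e-04 to 0.0918. Without control replicate 1, control replicate 3, senescent replicate 2 or senescent replicate 3, the calls of both Sp7 (adjusted p = 0.0656 to 0.0918) and Runx2 (0.0758 to 0.0974) were lost, which left Runx1 as the 1 member called lower.

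Sox9 (chromosome 11, 112782224 to 112787760, plus strand), the cartilage-directing factor, was expressed at 43.7, 18.0 and 23.1 CPM in control and 21.98, 13.9 and 16.3 CPM in senescent libraries. Control replicate 1 was well above the other 5 libraries, and the groups overlapped. The means were 28.3 ± 13.6 and 17.4 ± 4.17 CPM (SD, n = 3 each), and the log2 fold change of -0.61 did not pass the test (95% interval -1.34 to 0.12, SE 0.31, limma adjusted p = 0.148). Sox9 was lower in senescent FAPs in 3 of 3 pairs, with log2 differences of -0.98, -0.36 and -0.49, and passed the test with the replicate number as a block (adjusted p = 0.00903). It also passed without control replicate 2 (log2 fold change -0.88, adjusted p = 0.0301, with 0.00903 to 0.374 over the 19 alternatives). The log2 ratio of Sox9 to Runx2 was -1.21, -2.36 and -2.09 in control and -2.01, -2.43 and -2.08 in senescent libraries. The 2 groups overlapped in this ratio, and the difference of -0.28 had an exact permutation p of 0.7 (two-sided). Without control replicate 1 the difference was 0.053.

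**Figure D2:**
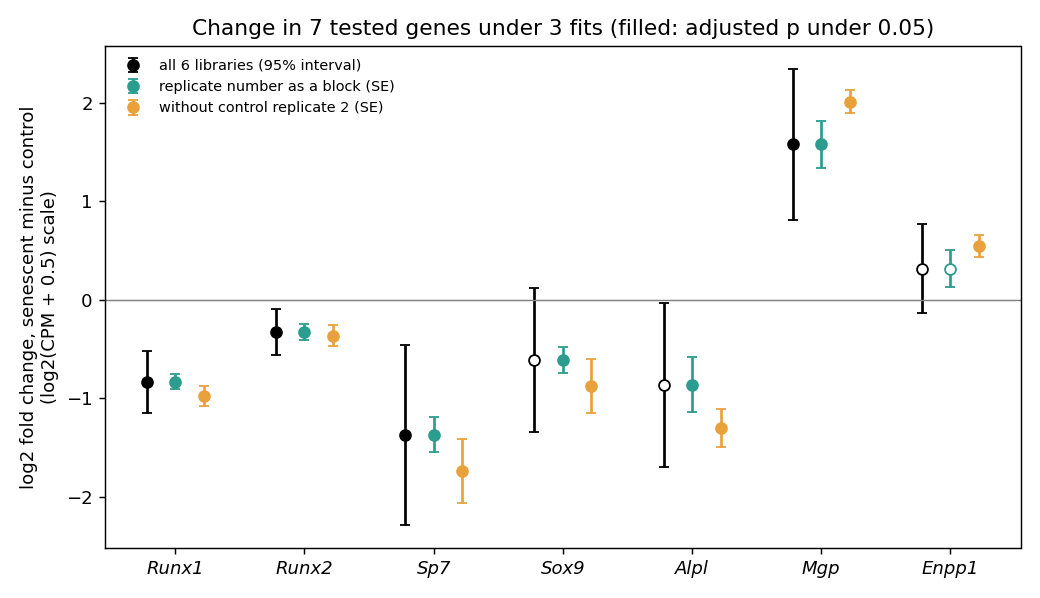
Log2 fold change (senescent minus control, log2(CPM + 0.5) scale) of the 7 tested members in the limma fit of all 6 libraries (black, bars are 95% intervals), with the replicate number as a block (green, bars are SE) and without control replicate 2 (orange, bars are SE). Filled points have an adjusted p under 0.05: Runx1, Runx2, Sp7 and Mgp are filled in all 3 fits, Sox9 and Alpl in the block fit and without control replicate 2, and Enpp1 only without control replicate 2.

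The mineralization enzymes act in opposite directions on pyrophosphate. Alpl (chromosome 4, 137741733 to 137796384, minus strand), the phosphatase that serves as an early osteoblast marker, was expressed at 7.86, 2.40 and 5.71 CPM in control FAPs and 2.78, 2.44 and 2.09 CPM in senescent FAPs. Control replicates 1 and 3 were above all senescent libraries, whereas control replicate 2 lay among them. The means were 5.32 ± 2.75 and 2.44 ± 0.34 CPM (SD, n = 3 each), and the log2 fold change of -0.86 did not pass the test over all genes (95% interval -1.70 to -0.03, SE 0.36, limma adjusted p = 0.0845). Behind these levels were 126 to 352 reads per control library and 93 to 146 per senescent library. The within-pair differences were -1.35, 0.02 and -1.26, and Alpl passed with the replicate block (adjusted p = 0.0372) and without control replicate 2 (log2 fold change -1.30, adjusted p = 0.0013, with 0.00101 to 0.223 over the 19 alternatives).

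Enpp1 (chromosome 10, 24637914 to 24712159, minus strand), the pyrophosphate-making enzyme, was expressed at 49.97, 80.0 and 49.2 CPM in control and 71.0, 64.1 and 84.1 CPM in senescent libraries. Control replicates 1 and 3 were below all senescent libraries, and control replicate 2 was the second highest of the 6. The means were 59.7 ± 17.5 and 73.1 ± 10.1 CPM (SD, n = 3 each), and the log2 fold change of 0.32 did not pass the test (95% interval -0.13 to 0.77, SE 0.19, limma adjusted p = 0.215). In the pairs it was 0.50, -0.32 and 0.77, and the replicate block did not change the outcome (adjusted p = 0.197). Without control replicate 2, Enpp1 passed as higher (log2 fold change 0.55, adjusted p = 0.00619, with 0.00619 to 0.489 over the 19 alternatives).

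The log2 ratio of Alpl to Enpp1, the phosphatase relative to the pyrophosphate source, was -2.60, -4.80 and -3.00 in control and -4.45, -4.46 and -5.03 in senescent libraries. Control replicates 1 and 3 had the highest ratios, and control replicate 2 had a lower ratio than senescent replicates 1 and 2. The ratio averaged -3.46 ± 1.17 in control and -4.64 ± 0.33 in senescent FAPs (SD, n = 3 each), a difference of -1.18 that was within the spread of the replicates (two-sided exact permutation p = 0.3, 0.45 after Benjamini-Hochberg adjustment over 3 ratios). Without control replicate 2 the difference was -1.85.

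**Figure D3:**
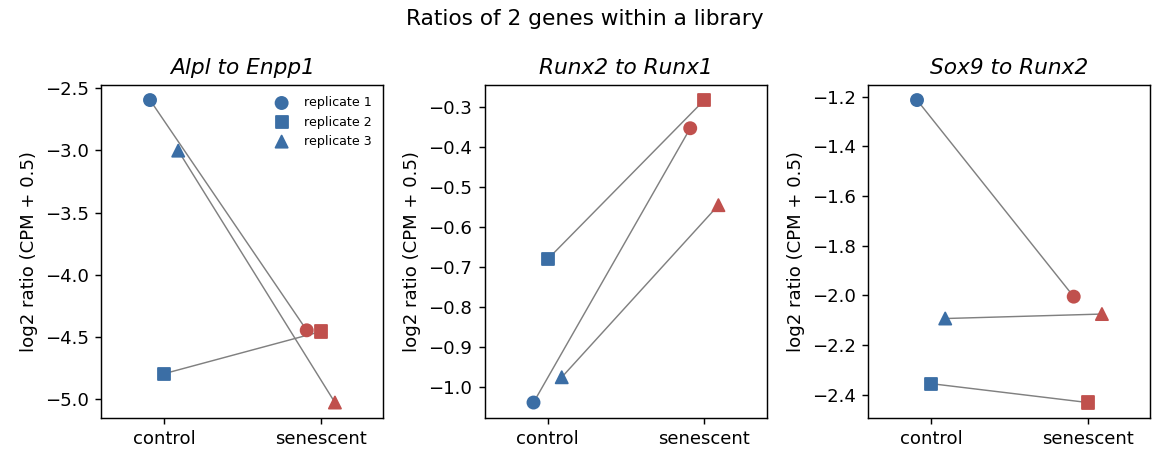
Log2 ratio of 2 genes in the same library (each as CPM + 0.5) for Alpl to Enpp1, Runx2 to Runx1 and Sox9 to Runx2; points are single libraries, control in blue and senescent in red, and lines join libraries with the same replicate number. Runx2 to Runx1 is higher in all 3 senescent libraries (-0.55 to -0.28) than in all 3 controls (-1.04 to -0.68), whereas the groups overlap for the other 2 ratios, and the vertical axes differ in range.

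Mgp (chromosome 6, 136872435 to 136875823, minus strand), whose product is a vitamin K-dependent inhibitor of calcification made by cartilage, vascular and connective tissue cells, was the 1 member that rose. Its level was 119, 309 and 131 CPM in control FAPs and 440, 520 and 567 CPM in senescent FAPs. Every senescent library lay above every control library, with control replicate 2 well above the other controls. The mean rose from 187 ± 106 to 509 ± 64.4 CPM (SD, n = 3 each, log2 fold change 1.58, 95% interval 0.81 to 2.35, SE 0.33, limma adjusted p = 0.00695). The rise was seen in 3 of 3 pairs (1.88, 0.75 and 2.11 on the log2 scale) and passed under all 19 alternatives, with log2 fold changes of 1.33 to 2.01, the highest without control replicate 2. The summed mural markers were also higher in senescent libraries, as given above. Notch3 (19.8 to 61.7 CPM) and Rgs5 (1.33 to 4.70 CPM) passed the test as higher. Abcc9 (5.1 to 7.6 CPM) was higher on average but did not pass the test. Myh11 (22.1 to 17.2 CPM) was lower on average but did not pass the test. Kcnj8 (0.266 to 0.101 CPM) was also lower, but lay below the expression filter and was not tested. The part of these cells in the rise of Mgp was not tested.

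Bglap (chromosome 3, 88383501 to 88384464, minus strand) encodes osteocalcin, the late osteoblast marker and another Gla protein. Its promoter window is shown because osteocalcin is the textbook RUNX2 target, and it held 1 match to the RUNX letters, in capitals, 132 bases before the start site (chr3:88384417-88384716, minus strand).
Bglap window: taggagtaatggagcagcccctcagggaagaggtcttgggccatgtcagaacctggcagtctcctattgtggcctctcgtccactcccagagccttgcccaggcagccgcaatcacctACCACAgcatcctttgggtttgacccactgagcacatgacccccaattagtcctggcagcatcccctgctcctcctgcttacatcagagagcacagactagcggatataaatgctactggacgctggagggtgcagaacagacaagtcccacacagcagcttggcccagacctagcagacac
Bglap was listed at 0.0446, 0.0951 and 0 CPM in control and 0.437, 0.519 and 0.338 CPM in senescent libraries. These values are 2, 5 and 0 reads for control FAPs and 22, 31 and 15 reads for senescent FAPs, so the groups did not overlap. The controls were at or near a floor of 3 reads, and the senescent libraries were low but above it. For control replicate 3, a count of 0 allows a level of up to 0.0539 CPM (3 reads, counting error only). Mean CPM was 9.26 times as high in senescent FAPs (7 reads in all controls against 68 in all senescent libraries, two-sided exact permutation p = 0.1, the smallest possible).

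The reads of Bglap are uncertain, since it lies beside the related genes Bglap2 and Bglap3 in a cluster that spans 15849 bases. Of the 519 stretches of 100 bases in the exons of Bglap, 192 (37.0%) also occur in Bglap2 and 9 (1.73%) in Bglap3. With stretches of 50 bases these shares were 51.3% and 19.3%. Of the stretches in Bglap2, 51.6% at 100 bases and 69.2% at 50 bases also occur in Bglap. How reads in such stretches were counted is not given in the sources used here. Bglap2 was listed at 0.0670, 0.0761 and 0.0898 CPM in control and 1.39, 1.22 and 1.44 CPM in senescent libraries, or 12 reads in all against 207. The groups did not overlap, and mean CPM was 17.4 times as high in senescent FAPs. Bglap2 passed the expression filter only through its senescent libraries, so no test is given for it. Bglap3 was not listed.

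Of the 8 listed members, 4 (Runx1, Runx2, Bglap and Mgp) did not overlap between groups, and among the 7 tested it was 3, against 57.4% of all genes tested. Control replicate 2 was the control library nearest the senescent mean in 7 of 7 tested members (8 of 8 listed), against 38.5% of all genes tested, where it lay lowest for Runx1, Runx2, Sp7, Sox9 and Alpl and highest for Mgp, Bglap and Enpp1. Members share libraries and are not independent, so this is a description.

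Per kilobase of exon, which allows levels of different genes to be compared, Mgp was the most abundant member in control FAPs at 157 ± 89.7 CPM per kb, followed by Runx1 at 15.5 ± 2.60 and Runx2 at 11.2 ± 0.48 (SD, n = 3 each). Sox9 (6.84 ± 3.29), Sp7 (6.33 ± 2.74) and Enpp1 (5.82 ± 1.71) came next, and neighbors among these 3 overlapped in range. Alpl (1.32 ± 0.68) and Bglap (0.0754 ± 0.0770) were lowest. In senescent FAPs, Mgp led at 429 ± 54.2 CPM per kb, and Runx2 (8.94 ± 1.11), Runx1 (8.64 ± 0.88) and Enpp1 (7.13 ± 0.99) formed a run of overlapping levels. Sox9 (4.21 ± 1.01) and Sp7 (2.36 ± 1.17) followed with overlapping ranges, and Bglap (0.697 ± 0.147) and Alpl (0.605 ± 0.0852) overlapped at the end of the order. Thus, per kilobase, Runx1 exceeded Runx2 in every control library, whereas in senescent FAPs their ranges overlapped. In CPM without division by exon length, Runx1 was above Runx2 in every control and every senescent library, so this order depends on the length used.

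Other genes of the same programs were taken from lists of related genes, which describe the setting of the members and carry no test of their own. Their counts are to be read against the 21.8% of all genes tested that rose and the 24.3% that fell. Of 20 osteoblast regulators, 16 were tested, of which 4 rose and 5 fell, with a median log2 fold change of -0.15. The number that rose was 1 without control replicate 3, senescent replicate 2 or senescent replicate 3 or with no variance trend, and 2 without control replicate 1 or senescent replicate 1, and with library totals alone 1 fell. Without control replicate 3 or senescent replicate 2, 3 fell. Atf4, a stress-response factor that also supports osteoblast maturation, fell from 320 ± 46.4 to 188 ± 27.4 CPM (SD, n = 3 each, log2 fold change -0.77, limma adjusted p = 0.00368). Zfp521, which encodes a zinc finger protein that binds and restrains RUNX2, rose from 41.1 ± 0.46 to 57.2 ± 2.08 CPM (SD, n = 3 each, log2 fold change 0.47, limma adjusted p = 0.00157). Cbfb, given above, was the third of the leading regulators. All 3 had no overlap between control and senescent libraries, as did 57.4% of all genes tested. They were picked for the smallest p in the list, which favors such separation.

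Of 14 bone matrix genes, 8 were tested, of which 3 rose and 3 fell, with a median of 0.09. Bglap2 is 1 of the 3 that rose, so 2 remain when the gene admitted only by its senescent libraries is set aside. Without senescent replicate 3 the count with Bglap2 included was 1, and that 1 gene was Bglap2. The type I collagen chains led the falls: Col1a1 had 21130, 9978 and 15530 CPM in control and 4073, 2923 and 2353 CPM in senescent libraries (log2 fold change -2.29, limma adjusted p = 0.0015). Col1a2 fell by 1.67 on the log2 scale (limma adjusted p = 0.00396). The 2 chains form the main fibrillar collagen of bone and of muscle connective tissue, and here too control replicate 2 was the lowest control. Dmp1, Mepe and Sost, markers of osteocytes, were not listed.

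Of 19 gene symbols for phosphate, pyrophosphate and Gla proteins, among them both Ank and Ankh, 14 were tested. Of these, 4 rose and 2 fell (5 fell with the replicate number as a block), with a median of -0.00. In this list 2 rose without control replicate 3, senescent replicate 2 or senescent replicate 3 or with no variance trend, and 1 fell without senescent replicate 2 or with library totals alone. Gas6, which encodes a Gla-containing ligand of TAM receptors, rose from 244 ± 53.6 to 605 ± 23.4 CPM (SD, n = 3 each, log2 fold change 1.33, limma adjusted p = 5.06e-04). Enpp2, a relative of Enpp1 that encodes the lysophospholipid enzyme autotaxin, rose from 2.50 ± 1.07 to 9.95 ± 2.66 CPM (SD, n = 3 each, log2 fold change 1.84, limma adjusted p = 0.00335), and Anxa6, an annexin of matrix vesicles, fell by 0.60 on the log2 scale (limma adjusted p = 0.0011). Ank, which encodes the protein that exports ATP and pyrophosphate, was at 336, 444 and 237 CPM in control and 257, 195 and 223 CPM in senescent libraries. These ranges overlapped, and the log2 fold change of -0.56 did not pass (95% interval -1.06 to -0.06, limma adjusted p = 0.0675), but did with the replicate block (adjusted p = 0.0443).

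Of 16 chondrocyte regulators, 10 were tested, of which 3 rose and 1 fell (2 fell with the block), with a median of 0.03. With library totals alone 5 rose and 0 fell, without senescent replicate 3 the count that fell was also 0, and without control replicate 2 it was 3 and without senescent replicate 1 it was 2. Sox5 and Sox6 encode partners of SOX9 in cartilage. Sox5 rose from 1.74 ± 0.31 to 4.25 ± 0.42 CPM (SD, n = 3 each, log2 fold change 1.09, limma adjusted p = 0.00164). Sox6 was at 0.215 ± 0.0975 CPM in control and 0.987 ± 0.117 CPM in senescent FAPs (SD, n = 3 each). It is 1 of the 3 counted as rising but passed the expression filter only through its senescent libraries, so no test is given for it, and 2 remain without it. Mef2c, a factor of chondrocyte hypertrophy and of muscle, rose by 0.71 on the log2 scale (limma adjusted p = 0.0111).

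Of 27 cartilage matrix gene symbols, among them both Cnmd and Lect1, 16 were tested. Of these, 5 rose and 3 fell (8 fell with the block), with a median of -0.22. Without control replicate 2, 6 fell, and without control replicate 1 or senescent replicate 1, 5 fell. Col2a1, the main cartilage collagen, was at 41.1, 81.7 and 118 CPM in control and 9.05, 17.1 and 8.53 CPM in senescent libraries, and fell by 2.69 on the log2 scale (limma adjusted p = 0.00164). Prg4, which encodes the joint lubricant lubricin, rose from 44.2 ± 8.70 to 223 ± 57.2 CPM (SD, n = 3 each, log2 fold change 2.31, limma adjusted p = 3.06e-04). Matn4, which encodes a matrilin, was at 0.125 ± 0.0767 CPM in control and 2.88 ± 0.728 CPM in senescent FAPs (SD, n = 3 each). It too passed the filter only through its senescent libraries and is given no test, and 4 of the 5 that rose remain without it. Within both cartilage lists, genes moved in both directions.

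**Figure D4:**
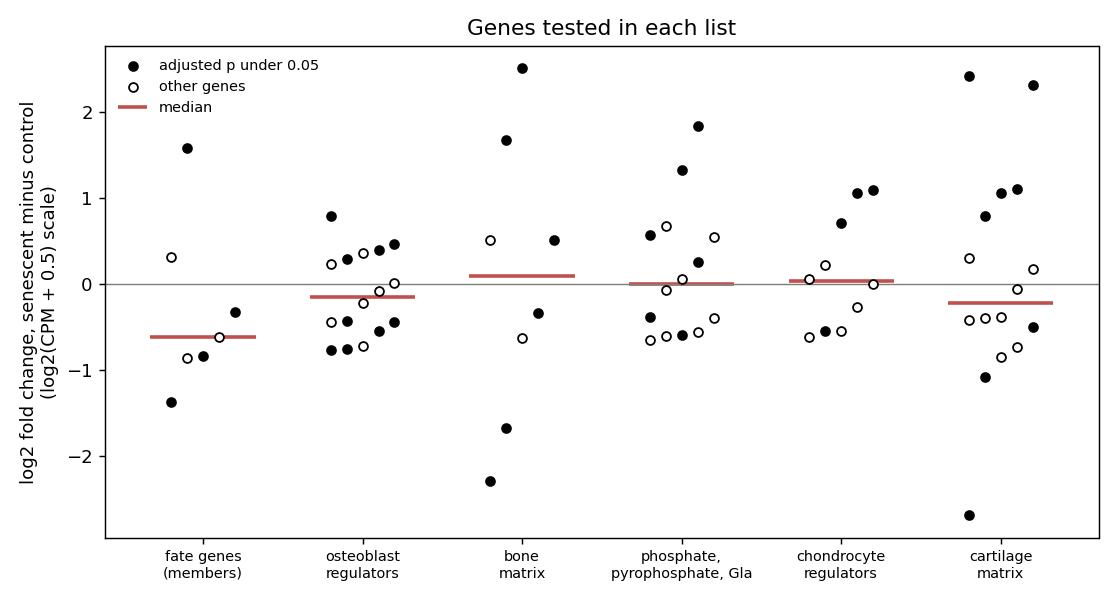
Log2 fold change (senescent minus control, log2(CPM + 0.5) scale) of each gene tested among the members and in 5 related lists; filled points have a limma adjusted p under 0.05 and red lines are medians. The members have a median of -0.61 and the 5 lists medians between -0.22 and 0.09, Bglap2, Sox6 and Matn4 passed the filter only through their senescent libraries, and each list holds genes called in both directions.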

How the data were processed

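The authors prepared stranded mRNA libraries, counted reads per gene, scaled them in edgeR and deposited 1 table, a signal in CPM of the effective library size, with replicates not pooled. The submitters' processing notes name mm10 (GRCm38), edgeR 3.10 and R 3.6.0. The aligner, counter, annotation, use of strand and filter on low counts are not given in the sources used here. The deposited CPM columns sum to 919819 to 1090570, and all values (100%) are whole multiples of 1 read (tolerance 0.1 read), so reads were recovered. The plan assumed CPM. The values proved to be this scaled signal, and the same test was kept.

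Groups and replicate numbers came from the sample titles. Senescent and control FAPs were compared with limma 3.58.1 (R 4.3.3) on log2(CPM + 0.5), two-sided with a variance trend, over genes that reached 0.5 CPM in 3 or more of 6 libraries, with Benjamini-Hochberg adjustment over all 14776 genes. Fold changes on this scale understate the change of low genes. Ratios used exact permutation tests. 1 line naming no gene (0.00409% to 0.00699% of reads) was left out. Chi-square per gene between replicates was 15.1 to 155, so none repeated another. Libraries with equal replicate numbers were treated as pairs only where stated, and the main fit did not use the numbers. Deviations from group means correlated at 0.537, 0.308 and 0.207 for equal numbers 1, 2 and 3. These were all above those for unequal numbers of the same library. The margin was small for number 3, with 0.153 for control replicate 2 and senescent replicate 3. No source says what a number shares.

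Alternatives were pseudocounts of 0.1 and 1, no filter, a filter at 2 CPM, median-of-ratios scaling, library totals, quantile normalization, leaving out each library, the replicate block, array weights, no variance trend, edgeR 4.0.16 and DESeq2 1.42.0 on recovered reads, and, added after seeing the data, edgeR without the filter. The fit was tested on simulated data. Members, related lists and markers were chosen with earlier results of these data known. Genes named beside the members are the 3 with the smallest p in each list and Bglap2, Bglap3, Runx3, Cbfb and Ank. Exon lengths, positions and overlaps come from GENCODE M21, and promoters from RefSeq (GRCm38.p6).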

Additional observations from a re-analysis of the deposited data

How the results depend on the processing

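Of the members, Runx1 and Mgp passed in all 19 alternatives, and no log2 fold change of a named gene changed sign. The count of members higher was 1 and became 2 without the filter, in limma and in edgeR (Bglap added), with array weights (Enpp1 added), and 1 to 2 on leaving out each library, the 2 being without control replicate 2 (Enpp1 added). Bglap lies below the filter, with 7 reads in all controls, so its addition is not read as a result. The count of members lower was 3 and became 5 with the replicate block, with array weights, and without control replicate 2 (Sox9 and Alpl added), with a range of 1 to 5 on leaving out each library. Library totals alone gave 2, as did no variance trend (Runx2 lost), and DESeq2 gave 4 (Alpl added). Quantile normalization exchanged Runx2 for Alpl. The replicate block changed no call of a member other than Sox9 and Alpl.

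Library totals alone turned the split of all genes from 3218 higher and 3592 lower to 5056 higher and 1933 lower. With that scaling, osteoblast regulators had 1 gene lower, the phosphate list 1 lower, and chondrocyte regulators 5 higher and 0 lower. With the replicate block, 5 phosphate, 2 chondrocyte regulator and 8 cartilage matrix genes were lower. With array weights, 8 osteoblast regulators, 4 phosphate, 3 chondrocyte regulator and 8 cartilage matrix genes were lower. Without a variance trend, 1 osteoblast regulator and 2 phosphate genes were higher, and edgeR without the filter gave 1 osteoblast regulator higher.

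On leaving out each library, genes higher and lower ranged from 1 to 4 and 3 to 7 for osteoblast regulators, 1 to 3 and 2 to 4 for bone matrix, 2 to 5 and 1 to 3 for the phosphate list, 3 to 4 and 0 to 3 for chondrocyte regulators, and 4 to 5 and 3 to 6 for cartilage matrix. The counts higher for bone matrix, chondrocyte regulators and cartilage matrix include Bglap2, Sox6 and Matn4, respectively. These genes passed the filter only through their senescent libraries and were called in each of these fits. The log2 ratio of Sox9 to Runx2 ranged from -0.52 to 0.053, positive without control replicate 1. The cause of these changes was not tested. Depth limits Bglap and Bglap2, whose control values rest on 7 and 12 reads in all.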
